A study of Basiliscus vittatus and Chrysopelea ornata and Dasypeltis gansi with 10 samples.

Results

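Cerebellar gene expression of the arboreal chameleon Trioceros jacksonii was set against that of the 3 other quadrupedal lizards profiled. These were the terrestrial bearded dragon Pogona vitticeps, the terrestrial fire skink Lepidothyris fernandi and the basilisk Basiliscus vittatus. The skink is named Mochlus fernandi in its sample record. The paper lists the basilisk as aerial or semi-arboreal, with both arboreal and facultatively bipedal movement. The comparison therefore used 4 of the 10 libraries of the series, 1 of the chameleon and 3 of the others, and the 6 remaining libraries came from limbless squamates. All animals were adult and wild-type, no treatment was given, and total RNA of the whole cerebellum was sequenced after depletion of ribosomal RNA. The values are FPKM (fragments scaled for transcript length and for the mapped fragments of the library) of 630 orthologs shared one-to-one by the 10 species. A gene was reported for T. jacksonii where its log2(FPKM + 1), with each library centred to the same median, lay above the highest or below the lowest of the 3 other lizards. In what follows, the gap of a gene is its log2 distance from the nearest of the 3, and the difference is T. jacksonii minus the mean of the 3. The quadrupedal arboreal mode of the paper is held by 1 chameleon species with 1 library. The locomotor mode, the family Chamaeleonidae, the individual and the library therefore cannot be told apart.

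The cerebellum refines posture and movement by comparing motor commands with sensory feedback. Its cortex holds Purkinje cells, the inhibitory output neurons, which receive parallel fibres from the very numerous granule cells. Chameleons climb slowly on narrow branches with gripping feet and a prehensile tail. Of the other lizards here, the bearded dragon and the skink are terrestrial, while the basilisk also moves in trees. Many of the molecules that guide axons and hold neurons together during development, such as semaphorins, plexins, ephrin receptors and contactins, are still made in the adult cerebellum, where some of them act at synapses.

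The 4 libraries differed in scale. FPKM summed over the 630 orthologs to 13383 in T. jacksonii, against 11592 in P. vitticeps, 6289 in L. fernandi and 10995 in B. vittatus, and the median FPKM was 15.5 in the chameleon and 11.8, 5.24 and 10.6 in the same 3 lizards. The chameleon was thus highest and the skink lowest before centring, which moved T. jacksonii by -0.58 and L. fernandi by 0.83 on the log2 scale. After centring, the median difference over all genes was -0.14, and without centring it was 0.62, so that directions below are relative to the centred scale. Read depth cannot be read from FPKM, and no interval for single values is given. Exact values of 0.5 FPKM occurred 0 times in T. jacksonii, against 3, 4 and 7 times in P. vitticeps, L. fernandi and B. vittatus. Purkinje and granule cell genes were present in all 4 libraries. Protocadherin Fat 2, an adhesion protein of granule cells in mammals, had 168 FPKM in T. jacksonii, against 89.7, 59.9 and 82.3 FPKM in P. vitticeps, L. fernandi and B. vittatus. The same order of species is kept wherever 3 values follow that of the chameleon. Reelin, a secreted glycoprotein made by granule cells, had 147 FPKM, against 54.0, 66.4 and 111 FPKM. Inositol 1,4,5-trisphosphate receptor type 1, the calcium release channel abundant in Purkinje cells, had 88.8 FPKM, against 70.6, 40.7 and 35.0 FPKM. Metabotropic glutamate receptor 1, which acts at parallel fibre synapses of Purkinje cells, had 13.8 FPKM, against 9.41, 9.62 and 23.1 FPKM. Of these 4 markers, Fat 2 lay 0.07 log2 above the range of the others once centred, and the other 3 lay inside it.

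Of the 630 genes, 140 (22.2%) lay above and 203 (32.2%) below the range of the 3 other lizards in T. jacksonii, and 287 lay inside it. Lying outside the range of 3 others was not particular to the chameleon: with each lizard in turn set against the remaining 3, P. vitticeps was highest in 128 and lowest in 171 genes, L. fernandi in 212 and 89, and B. vittatus in 150 and 167. The split between higher and lower genes depended on the scale, with 298 above and 62 below when libraries were not centred, and 169 above and 181 below after quantile normalization. It also depended on genes of low FPKM. Among the 533 genes with a mean of at least 5 FPKM, 135 lay above (25.3%) and 150 below (28.1%). Most gaps were small, with a median of 0.44 log2 for genes above and -0.54 log2 for genes below. A gap of 1 log2 or more was found in 20 genes above (3.17%) and 49 genes below (7.78%). The same count was 16 above and 35 below for P. vitticeps, 47 and 17 for L. fernandi, and 21 and 47 for B. vittatus. Just past this limit lay terminal uridylyltransferase 4 (1.01 log2 below) and just short of it RNA polymerase II subunit A C-terminal domain phosphatase (0.97 log2 above), both picked after their values were seen. All 20 far genes above reached 10 FPKM in at least 1 of the 4 lizards, as did 38 of the 49 far genes below. All 20 also stayed above the range with a pseudocount of 0.1 or 5, without centring and after quantile normalization. Without centring this had to be so, since centring lowered T. jacksonii more than any other lizard. Under the same 4 settings, 36 of the 49 stayed below the range.

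**Figure D1:**
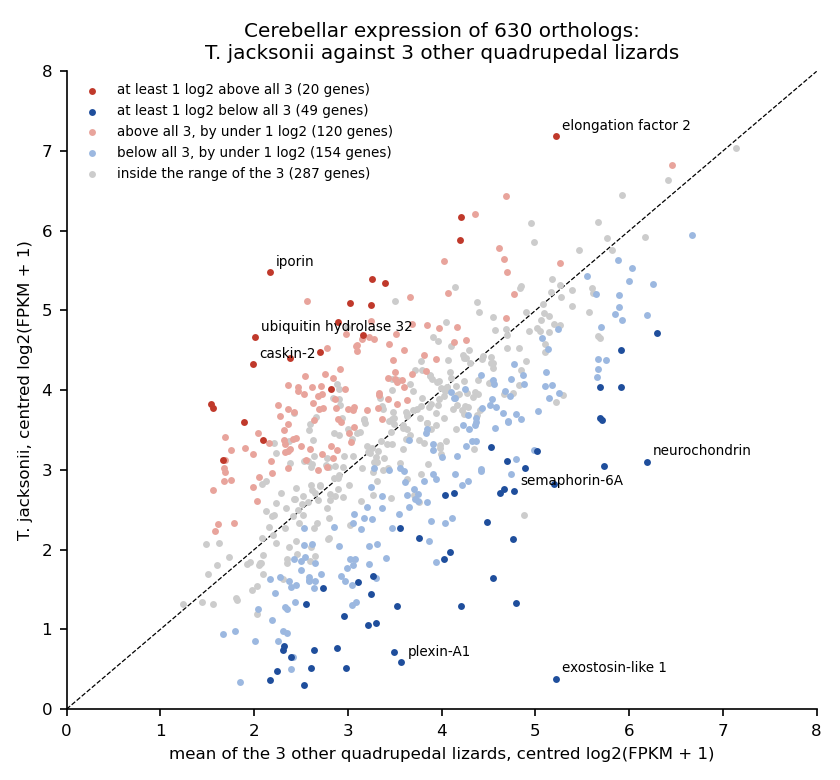
Each point is 1 of the 630 orthologs, with the mean of the 3 other quadrupedal lizards on the horizontal axis and T. jacksonii on the vertical axis, both as log2(FPKM + 1) centred to the same median, and a dashed line where both are equal. Dark red and dark blue points are the 20 and 49 genes at least 1 log2 beyond all 3 lizards, pale points lie beyond them by less, and grey points are the 287 genes inside their range.

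No gene passed an adjusted p of 0.05 in limma (0 higher, 0%, and 0 lower, 0%, Benjamini-Hochberg over 630 genes), the smallest adjusted p being 0.285. The lone chameleon library is assumed there to vary like the other 3, and p-values measure only the spread between these species. At an unadjusted limma p under 0.05, 12 genes were higher (1.9%) and 27 lower (4.29%) in T. jacksonii, and limma fitted on all 10 species gave 36 such genes and 0 adjusted calls. On simulated data of this size, shifts of 1 and 2 log2 were recovered in 0% of shifted genes, shifts of 3 in 55% and shifts of 4 in 94.5%, with 200 of the 630 genes shifted. The simulation gave every gene the same spread. In the data the SD of the 3 other lizards differed between genes, such as 0.03 log2 for cadherin-20 and 1.89 log2 for ankyrin-2. The recovered shares therefore need not hold for the data. For a single gene, an exact permutation test of 1 against 3 cannot go below p = 0.25 (one-sided). The genes below are therefore described by their values, and none of the differences is larger than the spread between species by an adjusted test.

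Iporin, a protein that binds the small GTPase Rab1, had the largest gap above. It had 65.7 FPKM in T. jacksonii, against 3.33, 3.36 and 2.21 FPKM, a difference of 3.32 ± 0.86 log2 (SE, limma, adjusted p = 0.621). In FPKM the 3 other lizards were close to each other and all far below the chameleon, whereas the limbless species spread between 0.5 and 57.8 FPKM. Ubiquitin carboxyl-terminal hydrolase 32, a deubiquitinating enzyme, had 36.8 FPKM in T. jacksonii, against 3.9, 0.91 and 3.69 FPKM. Caskin-2, a scaffold protein related to the synaptic CASK partner caskin-1, had 28.9 FPKM, against 2.95, 1.69 and 2.95 FPKM. Neither of these was reached by any limbless species, whose highest values were 15.3 FPKM for the hydrolase and 15.5 FPKM for caskin-2. Elongation factor 2, which moves the ribosome along the mRNA, was the most abundant ortholog of the chameleon, with 215 FPKM against 45.4, 22.2 and 31.4 FPKM. Plectin, a linker between intermediate filaments and other parts of the cytoskeleton, had 30.6 FPKM, against 3.93, 2.02 and 5.46 FPKM. For elongation factor 2 and plectin the chameleon lay among the limbless species, which ranged from 21.9 to 257 FPKM and from 20.9 to 49.1 FPKM.

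Several further genes far above the range encode parts of transport complexes and of the centrosome. Of 32 trafficking genes, however, 7 lay above the range (21.9%, against 22.2% of all genes) and 9 below it (28.1%, against 32.2%). Coatomer subunit gamma-2, of the COPI coat of Golgi vesicles, had 61.7 FPKM in T. jacksonii, against 5.75, 5.05 and 13.5 FPKM. Dynactin subunit 1, which couples dynein to its cargo, had 107 FPKM, against 15.7, 7.82 and 27.9 FPKM. Exocyst complex component 2, of the complex that tethers secretory vesicles to the plasma membrane, had 48.98 FPKM, against 8.72, 6.33 and 7.04 FPKM. In these 3 genes the chameleon value exceeded each of the others also before centring. That holds for every gene above the centred range, since centring lowered T. jacksonii most. Centriolin, a centriole protein needed for cell division, had 20.1 FPKM, against 1.19, 2.10 and 1.44 FPKM. Nesprin-2, which ties the nucleus to the cytoskeleton, had 50.0 FPKM, against 10.4, 1.60 and 11.2 FPKM. TBC1 domain family member 31 had 19.5 FPKM, against 1.95, 1.74 and 1.13 FPKM. The last of the 12 genes farthest above was NT-3 growth factor receptor, the receptor tyrosine kinase for the neurotrophin NT-3, with 59.7 FPKM in T. jacksonii, against 18.6, 6.73 and 4.15 FPKM, and a gap of 1.25 log2.

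Exostosin-like 1, a glycosyltransferase of heparan sulfate synthesis, stood farthest below. It had 0.94 FPKM in T. jacksonii, against 26.4, 49.4 and 24.0 FPKM (33.3 ± 14.01, SD, n = 3), and lay 18.3-fold below the nearest lizard on the centred FPKM + 1 scale. Its difference of -4.84 ± 0.96 log2 (SE) had the smallest limma p of all genes (0.000453, adjusted p = 0.285). This gene passed the adjusted threshold with a pseudocount of 5 (limma, adjusted p = 0.00881), without P. vitticeps (adjusted p = 0.00428) and without B. vittatus (adjusted p = 0.00034), but under none of the other alternatives. Neurochondrin, a neuronal protein that promotes neurite outgrowth, had 11.8 FPKM in the chameleon, against 88.5, 38.3 and 72.7 FPKM. Its gap of 3.02 log2 came with close agreement of the 3 others after centring. WASH complex subunit FAM21C, which helps to sort cargo on endosomes, had 3.65 FPKM, against 20.2, 20.6 and 17.6 FPKM. Plexin-A1, a semaphorin receptor, had 1.24 FPKM, against 23.3, 3.71 and 8.79 FPKM. All 4 genes were lower in the chameleon than in each of the 9 other species, by 2.07, 1.90, 1.30 and 0.22 log2.

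The other 8 of the 12 genes farthest below had gaps of 1.69 to 2.06 log2, and each was lowest in the chameleon among the 4 lizards before centring as well. TLR4 interactor with leucine rich repeats, a partner of a receptor of innate immunity, had 2.66 FPKM in T. jacksonii, against 10.8, 24.9 and 12.8 FPKM. Remodeling and spacing factor 1, a histone-binding subunit of a chromatin remodeller, had 1.13 FPKM, against 8.92, 4.36 and 5.18 FPKM. Actin-based proteins were among them. Of 30 genes of actin, myosins and focal adhesion, however, 11 lay below the range (36.7%, against 32.2% of all genes). On the other side, 7 lay above it (23.3%, against 22.2%), plectin farthest. Myosin-9, a non-muscle myosin heavy chain, had 6.56 FPKM, against 30.1, 11.6 and 18.3 FPKM. Unconventional myosin-VI, the motor that walks towards the minus end of actin filaments, had 4.83 FPKM, against 13.76, 14.06 and 14.02 FPKM. Alpha-adducin, which caps actin filaments and joins them to spectrin, had 23.5 FPKM, against 72.5, 32.6 and 58.2 FPKM. The remaining 3 act in membrane traffic. TBC1 domain family member 10A, a Rab GTPase-activating protein, had 0.83 FPKM, against 7.31, 2.67 and 3.29 FPKM. DnaJ homolog subfamily C member 13, an endosomal co-chaperone, had 11.1 FPKM, against 38.4, 14.7 and 27.1 FPKM. CTAGE family member 5, which acts at exit sites of the endoplasmic reticulum, had 2.66 FPKM, against 8.07, 4.06 and 21.4 FPKM.

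**Figure D2:**
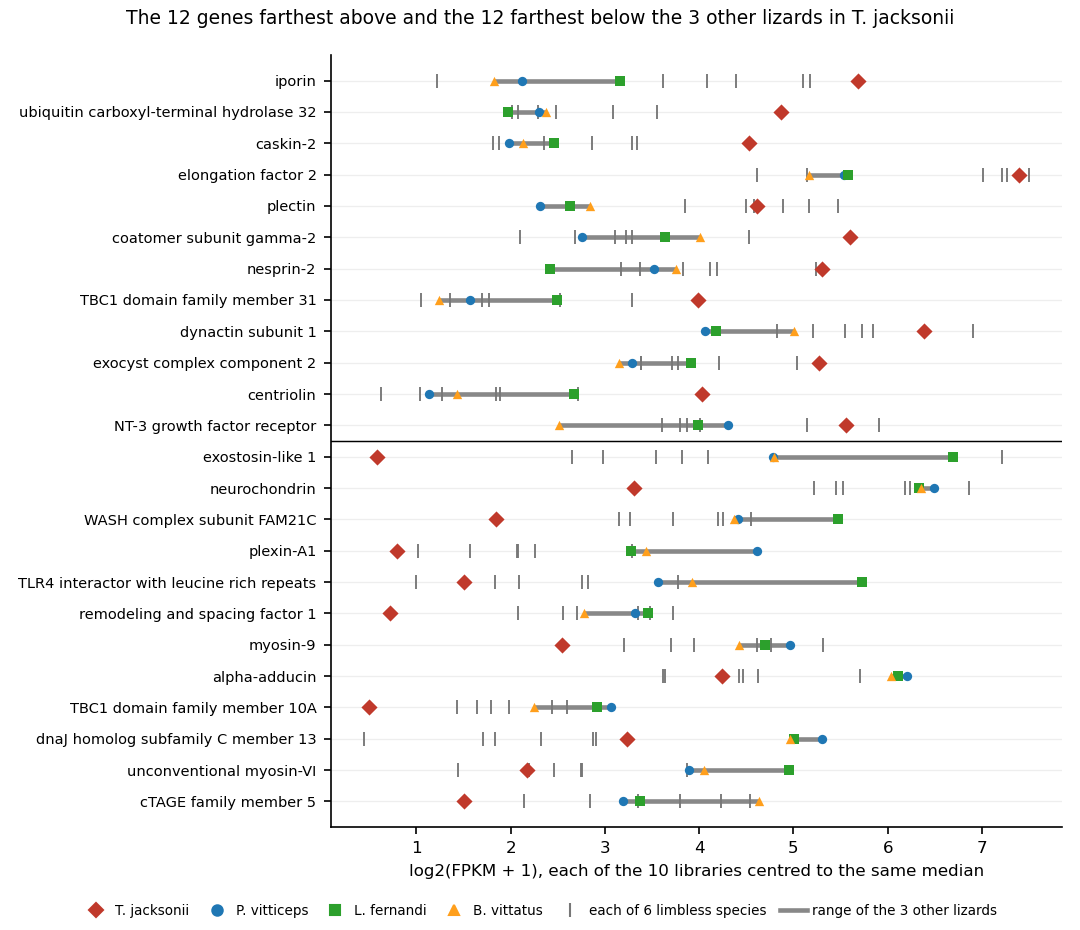
Rows are the 12 genes farthest above (upper block) and the 12 farthest below (lower block) the 3 other lizards in T. jacksonii, and the horizontal axis is log2(FPKM + 1) with all 10 libraries centred to the same median. Red diamonds are T. jacksonii, the other coloured symbols are the 3 lizards with a grey bar over their range, and grey ticks are the 6 limbless species. In the upper block the diamond lies right of the bar in every row and in the lower block left of it.

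Among the 19 gene lists, neural cell adhesion and axon guidance had the lowest median difference with all 4 lizards, a rank that did not hold when L. fernandi or B. vittatus was left out. Of its 30 members, 15 lay below and 5 above the range of the 3 other lizards (50% and 16.7%, against 32.2% and 22.2% of all genes), and 10 lay inside it. These counts depended on the scale. Without centring, 6 lay below (20%, against 9.84% of all genes) and 9 above (30%, against 47.3%). After quantile normalization, 14 lay below (46.7%, against 28.7%) and 7 above (23.3%, against 26.8%). The median difference of the list was -0.82 log2, against -0.14 over all genes. Without centring the list median was -0.05, against 0.62 over all genes, and after quantile normalization -0.47, against -0.01. Without L. fernandi, the library with the lowest sum, the list median was -0.65, and that of calcium channels, stores and pumps was lower (-0.68). Without B. vittatus it was -0.71, and that of energy metabolism was lower (-0.73). Of the 30 members, 4 were at least 1 log2 below and 1 at least 1 log2 above the range, beside 7.78% and 3.17% of all genes. The counts are a description, since members were chosen by protein name and none had an adjusted limma call.

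Several receptors lay on the low side of this list, among them plexin-A1 given above. Netrin receptor UNC5A, which mediates repulsion from netrin, had 2.09 FPKM in T. jacksonii, against 12.9, 1.48 and 14.8 FPKM, so that it lay below L. fernandi only after centring. Ephrin type-A receptor 4, a receptor tyrosine kinase of axon repulsion, had 4.51 FPKM, against 8.59, 8.55 and 30.9 FPKM. The chameleon was lower than each lizard here on both scales, and lower than every limbless species, which ranged from 6.25 to 48.3 FPKM. Ephrin type-B receptor 1, a related kinase, had 21.3 FPKM, against 27.9, 16.9 and 55.7 FPKM. Plexin-B2, the receptor of class 4 semaphorins, had 4.47 FPKM, against 16.1, 4.06 and 3.69 FPKM, and lay only 0.29 log2 below the range. Plexin-A2 had 10.5 FPKM in T. jacksonii, against 54.0, 3.56 and 50.4 FPKM, and lay 0.08 log2 below the centred range. Plexin-A3 had 15.2 FPKM, against 15.3, 2.37 and 4.13 FPKM, inside the range.

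Ligands and adhesion proteins of the list were found on both sides. Semaphorin-6A, a membrane-bound ligand of A-type plexins that steers granule cell migration in mice, had 8.94 FPKM in T. jacksonii, against 39.7, 10.8 and 27.5 FPKM. It was also below all limbless species, which ranged from 25.5 to 101 FPKM, and its gap of 1.65 log2 was the same against the 3 lizards and against all 9 species. Semaphorin-4D had 8.70 FPKM, against 10.9, 10.4 and 11.1 FPKM. Semaphorin-5B was at the opposite end, with 128 FPKM in the chameleon against 64.6, 5.53 and 25.6 FPKM, and semaphorin-4G had 33.3 FPKM against 18.5, 5.59 and 0.68 FPKM. The 4 measured semaphorins thus comprised a pair below and a pair above the range. Astrotactin-2, which takes part in the glia-guided migration of granule cells in mice, had 3.39 FPKM, against 4.64, 6.88 and 7.52 FPKM, and 13.4 to 80.4 FPKM in limbless species. Spondin-1, a secreted matrix protein, was low in all 4 lizards, with 2.55 FPKM in T. jacksonii against 2.70, 2.30 and 2.86 FPKM, whereas limbless species had 6.11 to 59.6 FPKM. Calsyntenin-3, a synaptic adhesion protein of Purkinje cells in mice, had 48.2 FPKM, against 82.9, 23.4 and 68.0 FPKM. Contactin-4 had 2.69 FPKM, against 5.09, 13.2 and 3.37 FPKM, while contactin-5 had 13.1 FPKM, against 2.16, 2.57 and 7.00 FPKM.

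Set against all 9 other species, 10 of the 30 guidance and adhesion members were lowest in T. jacksonii and 2 were highest. Among all genes 11.7% were lowest and 8.57% highest. A gene lowest of all species is also below the other lizards, so this count is not separate from the one above. The list was written with earlier results of these data known. The 10 were plexin-A1, UNC5A, ephrin type-A receptor 4, semaphorin-6A, contactin-4, astrotactin-1, astrotactin-2, plexin-B2, spondin-1 and calsyntenin-3. The count of lowest members was 7 after quantile normalization (23.3%, against 10.95% of all genes) and 4 without centring (13.3%, against 4.60% of all genes). Without L. fernandi it was 10, but leaving out a species could not lower it. The members that were lowest also in uncentred FPKM were plexin-A1, ephrin type-A receptor 4, semaphorin-6A and astrotactin-2. The 2 highest were contactin-2 and semaphorin-5B. Members of this list that fall outside the naming rule were picked after their values were seen.

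**Figure D3:**
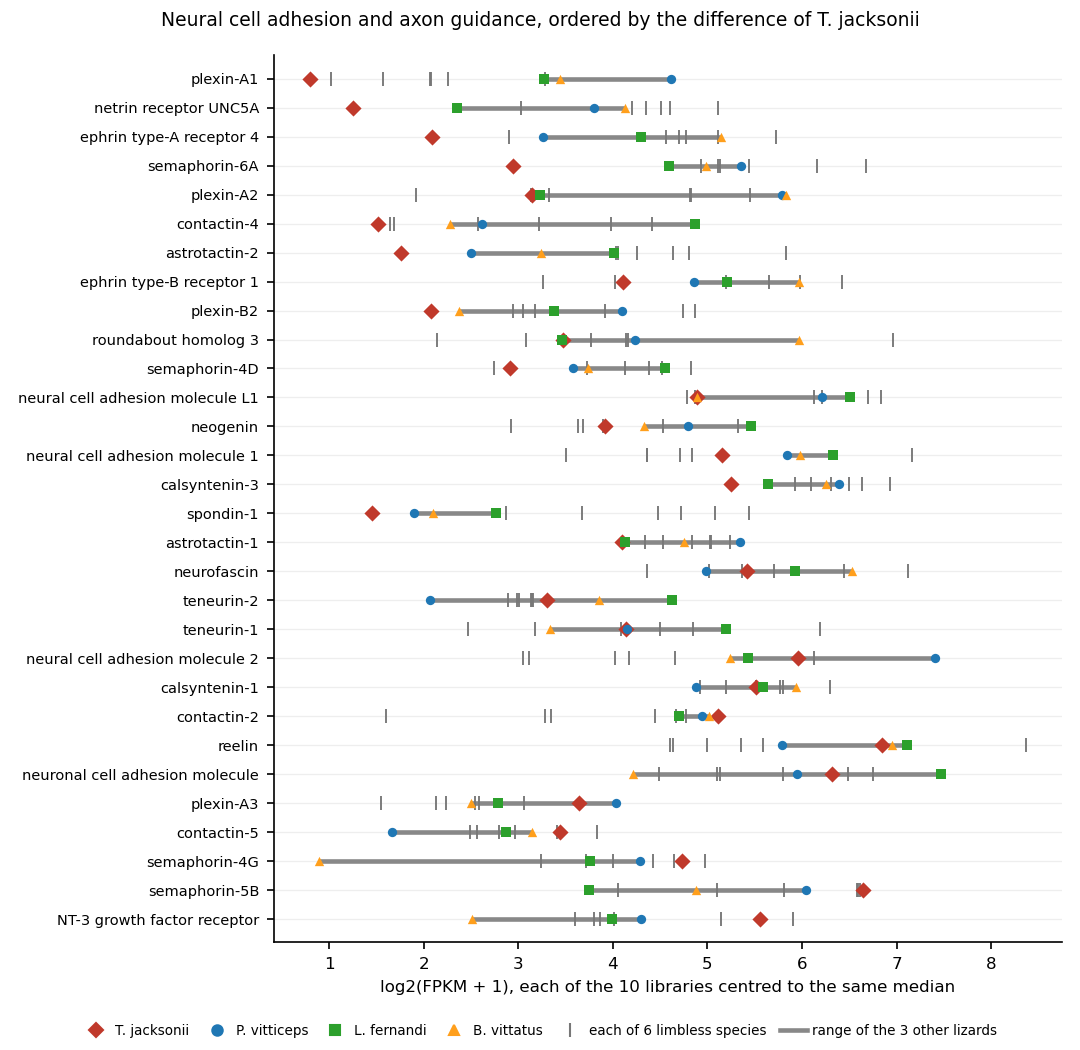
Rows are the 30 members of the neural cell adhesion and axon guidance list, ordered by the difference of T. jacksonii from the 3 other lizards, with the same axis and symbols as for the 24 most distant genes. From plexin-A1 at the top the red diamonds lie left of the grey bar in 15 rows, and to the right of it in 5 rows of the lower part, down to NT-3 growth factor receptor.

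Counts of the further lists are to be read against the 22.2% of all genes above and the 32.2% below the range. Of 17 glutamate and GABA-B receptors and postsynaptic scaffolds, 2 lay above (11.8%) and 7 below (41.2%), with a list median of -0.25 log2 (0.52 without centring). Gamma-aminobutyric acid type B receptor subunit 1, an obligatory part of the metabotropic GABA receptor, had 9.58 FPKM in T. jacksonii, against 42.1, 9.90 and 69.6 FPKM. Its partner subunit 2 had 21.2 FPKM, against 19.4, 8.50 and 18.3 FPKM, and lay only 0.18 log2 below the centred range. In FPKM without centring, subunit 1 was the lowest of the 4 lizards as well, whereas subunit 2 was the highest. Metabotropic glutamate receptor 7, a presynaptic autoreceptor, had 4.26 FPKM, against 13.6, 2.26 and 10.5 FPKM. Metabotropic glutamate receptor 8 had 51.0 FPKM, against 7.50, 1.77 and 40.1 FPKM, and lay inside the centred range.

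Of 19 genes of the presynaptic vesicle cycle, 4 lay above (21.1%) and 6 below (31.6%), with a median of -0.18 log2 (0.59 without centring and 0.28 after quantile normalization). Stonin-2, an endocytic adaptor for synaptotagmin, had 23.5 FPKM in T. jacksonii, against 2.83, 2.03 and 8.78 FPKM. Clathrin heavy chain 1, the main component of the endocytic coat, had 32.9 FPKM, against 14.98, 4.34 and 12.96 FPKM. Other endocytic genes lay on the low side. Epidermal growth factor receptor substrate 15, an adaptor at coated pits, had 9.11 FPKM, against 22.9, 15.8 and 26.3 FPKM, and a gap of 1.62 log2. Dynamin-2, the GTPase that cuts vesicles from the membrane, had 8.73 FPKM, against 41.4, 7.05 and 28.3 FPKM.

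Among 11 calcium channels, stores and pumps, 6 lay below (54.5%, against 32.2% of all genes) and 2 above the range (18.2%, against 22.2%). The share below depended on the scale. Without centring, 0 lay below (0%, against 9.84% of all genes) and 4 above (36.4%, against 47.3%). After quantile normalization, 5 lay below (45.5%, against 28.7%). The list median was -0.41 log2, and without centring it was 0.36, against 0.62 over all genes. The median was -0.17 log2 without P. vitticeps, -0.68 log2 without L. fernandi and -0.16 log2 after quantile normalization. Calcium-transporting ATPase type 2C member 1, the Golgi calcium pump, had 13.03 FPKM in T. jacksonii, against 52.5, 12.2 and 31.2 FPKM. It lay below L. fernandi only after centring. Ryanodine receptor 2, a release channel of the endoplasmic reticulum, had 73.4 FPKM, against 46.6, 8.24 and 24.0 FPKM, and was thus highest of the 4. The voltage-dependent channels of the L, N and R types lay 0.34, 0.27 and 0.80 log2 below the range. In uncentred FPKM none of these 3 was the lowest of the 4 lizards, since L. fernandi was lower for each and P. vitticeps also for the N type. Of 17 other ion channels and transporters, 5 lay above (29.4%) and 6 below (35.3%). Their median of 0.06 log2 had no stable sign, being -0.34 without B. vittatus, -0.03 without P. vitticeps, -0.12 with a pseudocount of 5 and -0.16 without genes at exactly 0.5 FPKM. Anoctamin-5 had 34.7 FPKM, against 7.93, 8.29 and 9.27 FPKM, and was also higher than in any limbless species (at most 19.6 FPKM). The volume-regulated anion channel subunits LRRC8A, LRRC8B and LRRC8D all lay below the centred range, and LRRC8A, the obligatory subunit, had 1.49 FPKM, against 7.22, 0.90 and 4.20 FPKM. In FPKM without centring, L. fernandi was lower than the chameleon for LRRC8A and LRRC8D, and B. vittatus for LRRC8B.

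**Figure D4:**
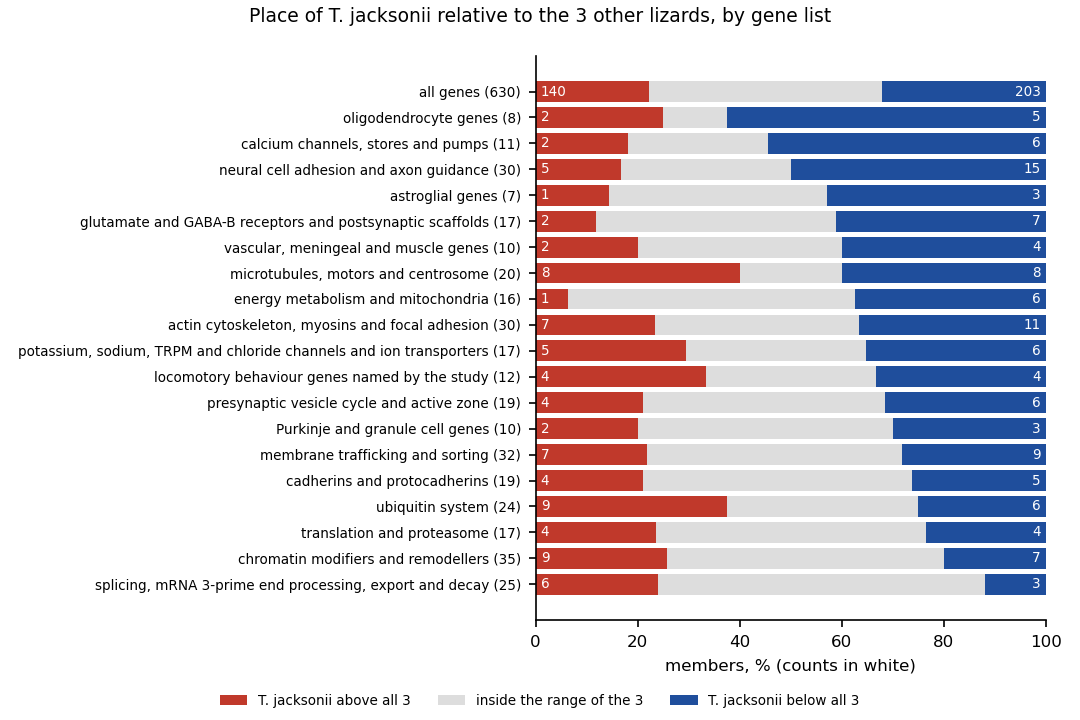
Each bar is a gene list with its number of members in parentheses, and the top bar is all 630 genes. From the left, red gives the percentage of members above, grey inside and blue below the range of the 3 other lizards in T. jacksonii, with the numbers above and below in white. The guidance and adhesion list has 15 members below, and the splicing list at the bottom has 3, which was 8 without B. vittatus.

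Cytoskeletal genes were spread to both sides. Of 30 genes of actin, myosins and focal adhesion, 7 lay above (23.3%) and 11 below (36.7%). Their median was -0.19 log2, and it was 0.58 without centring and 0.06 after quantile normalization. Besides plectin, nesprin-2, myosin-9, myosin-VI and alpha-adducin, utrophin, the dystrophin relative that links actin to the membrane, had 1.5 FPKM in T. jacksonii, against 3.74, 2.86 and 7.88 FPKM. Transgelin-2, an actin-binding protein, had 34.1 FPKM, against 6.13, 9.73 and 4.41 FPKM, and at most 11.4 FPKM in limbless species. Among 20 genes of microtubules, motors and the centrosome, 8 lay above (40%), 8 below (40%) and 4 inside the range, beside 22.2% above and 32.2% below among all genes. Kinesin heavy chain, the motor of outward axonal transport, had 17.7 FPKM, against 44.0, 46.3 and 42.7 FPKM. It was thus low where dynactin subunit 1, a partner of the inward motor dynein, was high. The motor subunit cytoplasmic dynein 1 heavy chain 1 itself lay 0.36 log2 below the centred range. It had 58.9 FPKM, against 88.4, 28.1 and 114 FPKM. Rootletin, a component of the ciliary rootlet, had 109 FPKM, against 58.1, 4.23 and 17.5 FPKM, and at most 21.8 FPKM in limbless species. Of 19 cadherins and protocadherins, 4 lay above and 5 below, and none by 1 log2 or more, beside 11% of all genes. Cadherin-20 had 40.5 FPKM, against 60.0, 28.2 and 51.8 FPKM, and the row named protocadherin gamma-B1-like had 72.5 FPKM, against 5.61, 13.2 and 29.8 FPKM. Protocadherins of the clustered families share part of their sequence, so that reads may have been split among them.

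Subunits of the same complex lay on different sides of the range. In the list of 32 trafficking genes, with 7 above, 9 below and a median of 0.02 log2 (-0.02 without P. vitticeps and with a pseudocount of 5), coatomer subunit alpha had 2.16 FPKM in T. jacksonii, against 6.45, 4.86 and 13.7 FPKM. This was the reverse of coatomer subunit gamma-2. Coatomer subunit gamma-1 lay inside the range, with 11.1 FPKM against 5.17, 4.06 and 14.04 FPKM. Both alpha and gamma-2 were beyond all 9 other species, alpha by 1.61 log2 and gamma-2 by 1.07 log2. The exocyst gave a similar picture, with component 2 above the range, component 5 above it (26.9 FPKM, against 16.5, 4.28 and 9.48 FPKM), component 3 below it (17.2 FPKM, against 33.6, 9.53 and 31.9 FPKM) and components 1, 6B and 7 inside. ADP-ribosylation factor 1, the GTPase that recruits COPI coats, had 17.3 FPKM, against 40.5, 28.4 and 77.5 FPKM.

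Of 25 genes of splicing and RNA processing, 6 lay above (24%) and 3 below (12%, against 32.2% of all genes), and 16 lay inside. None lay 1 log2 or more outside, beside 11% of all genes. The number below was 8 without B. vittatus (32%, against 41.4% of all genes) and 7 without P. vitticeps (28%, against 42.9%). Splicing factor 3B subunit 3, of the U2 snRNP, had 11.9 FPKM in T. jacksonii, against 3.67, 1.64 and 4.07 FPKM, and THO complex subunit 4, an mRNA export adaptor, had 10.0 FPKM, against 14.1, 9.87 and 13.7 FPKM. Of 17 genes of translation and the proteasome, 4 lay above and 4 below. Deoxyhypusine hydroxylase, which completes the hypusine residue of initiation factor 5A, had 1.13 FPKM, against 4.95, 4.96 and 3.24 FPKM. The ubiquitin system had 9 of 24 members above and 6 below, with a median of 0.13 log2, which turned to -0.06 without B. vittatus. Ubiquitin carboxyl-terminal hydrolase 34 had 52.4 FPKM, against 17.0, 10.4 and 5.58 FPKM, on the same side as hydrolase 32. Hydrolase BAP1, which removes ubiquitin from histone H2A, had 3.27 FPKM, against 6.5, 2.75 and 5.98 FPKM. In FPKM all 4 lizards, not only the chameleon, were lower than every limbless species (10.6 to 72.7 FPKM). DDB1- and CUL4-associated factor 5, a substrate receptor of a ubiquitin ligase, had 3.48 FPKM, against 12.3, 2.96 and 7.19 FPKM.

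Of 35 chromatin genes, 9 lay above and 7 below (median 0.06 log2, and -0.10 without P. vitticeps). Histone H2A deubiquitinase MYSM1 had 13.2 FPKM in T. jacksonii, against 2.38, 1.89 and 1.63 FPKM, and 11.5 to 45.9 FPKM in limbless species. Once centred, the chameleon lay between the groups, above every lizard and below every limbless species. The opposite held for DnaJ homolog subfamily C member 13, with 1.22 to 9.48 FPKM in limbless species. Methylcytosine dioxygenase TET3, which oxidises methylated DNA, had 0.88 FPKM, against 3.03, 2.34 and 1.31 FPKM, and at least 1.84 FPKM in limbless species.

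Of 16 genes of energy metabolism and mitochondria, 6 lay below (37.5%, against 32.2% of all genes) and 1 above the range (6.25%, against 22.2%). A negative difference was found in 14 of the 16, and in 354 of all 630 genes. The list median was -0.60 log2, against -0.14 over all genes, and 0.16, against 0.62 over all genes, without centring. After quantile normalization, 4 lay below (25%, against 28.7% of all genes) and 2 above (12.5%, against 26.8%). The list median was then -0.34 log2, against -0.01 over all genes. NADH dehydrogenase 1 beta subcomplex subunit 9, of respiratory complex I, had 38.1 FPKM in T. jacksonii, against 60.4, 69.2 and 75.5 FPKM. Beta subcomplex subunit 10 had 29.96 FPKM, against 131, 27.0 and 27.4 FPKM, so that L. fernandi and B. vittatus were lower before centring. NADH dehydrogenase 1 alpha subcomplex assembly factor 3, which helps to build the same complex, lay above the range. It had 36.97 FPKM, against 9.83, 6.91 and 5.41 FPKM, and at most 16.8 FPKM in limbless species. Glycogen debranching enzyme had 9.41 FPKM, against 32.9, 9.50 and 11.1 FPKM.

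Markers of other cell types were examined beside these results. In bulk tissue, fewer cells of a type and less RNA per cell cannot be told apart. Of 8 genes enriched in oligodendrocytes, 5 lay below (62.5%, against 32.2% of all genes) and 2 above the range (25%, against 22.2%). Their median was -0.55 log2 (0.22 without centring). The share below depended on the scale. It was 37.5% after quantile normalization (28.7% of all genes) and 12.5% without centring (9.84% of all genes). Their FPKM summed to 194 in T. jacksonii, against 218, 98.9 and 209 FPKM. Of these 8, semaphorin-4D lay farthest below, and carnosine synthase 1, which makes carnosine, farthest above, with 23.0 FPKM against 11.2, 4.90 and 3.43 FPKM. Of 7 astroglial genes, 3 lay below and 1 above, and their sum was 146 FPKM, against 105, 58.6 and 155 FPKM. Tenascin, a matrix glycoprotein, had 2.77 FPKM, against 12.9, 8.14 and 2.25 FPKM, and the lipid exporter ATP-binding cassette sub-family A member 1 had 24.0 FPKM, against 2.52, 1.03 and 11.7 FPKM. Of 10 vascular, meningeal and muscle genes, 4 lay below and 2 above, with a sum of 128 FPKM, against 83.2, 40.8 and 95.9 FPKM. Transgelin-2 lay farthest above among them, and myosin-9, also a member of the actin list, farthest below. Of 10 Purkinje and granule cell genes, 3 lay below and 2 above, with a sum of 552 FPKM, against 358, 235 and 388 FPKM. Contactin-2 lay farthest above among them and semaphorin-6A farthest below, both also members of the guidance and adhesion list. No member of these 4 lists was at 0.5 FPKM in T. jacksonii. The oligodendrocyte and astroglial sums lay inside the range of the 3 other lizards, and the other 2 sums were highest in the chameleon, which also had the highest sum over all genes. The part of cell composition in the gene results was not tested.

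Of the 12 locomotory behaviour genes named by the study, 4 lay above and 4 below the range in T. jacksonii (33.3% each, against 22.2% and 32.2% of all genes). The number below was 1 without centring (8.33%, against 9.84% of all genes) and 1 after quantile normalization (8.33%, against 28.7%). In these 2 settings 6 and 4 lay above (50% and 33.3%, against 47.3% and 26.8%). The median difference was -0.14 log2, beside -0.14 log2 over all genes. It was 0.63 without centring, 0.04 after quantile normalization and 0.00 without B. vittatus. Spatacsin, whose loss causes a hereditary spastic paraplegia in humans, was farthest above, with 23.1 FPKM against 7.61, 2.98 and 5.92 FPKM. Hamartin, an inhibitor of mTOR signalling, had 14.4 FPKM, against 8.70, 0.97 and 3.35 FPKM. Alsin, a guanine nucleotide exchange factor mutated in juvenile motor neuron disease, had 19.1 FPKM, against 12.2, 2.02 and 8.74 FPKM. Contactin-2, an axonal adhesion protein of granule cells, had 43.8 FPKM, against 29.7, 11.7 and 28.3 FPKM. All 4 were also highest of the 4 lizards before centring, as is every gene above the centred range.

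On the low side of these 12, ephrin type-A receptor 4 was followed by genes just under the range. Striatin, a scaffold of the STRIPAK phosphatase complex, had 20.03 FPKM in T. jacksonii, against 32.5, 14.6 and 14.5 FPKM (gap 0.07 log2). Astrotactin-1 had 21.1 FPKM, against 39.4, 7.54 and 23.3 FPKM (gap 0.04 log2). Metabotropic glutamate receptor 5 had 22.4 FPKM, against 17.1, 7.83 and 20.2 FPKM, and touched the lower edge of the range. Only ephrin type-A receptor 4 was lowest of the 4 lizards before centring, whereas metabotropic glutamate receptor 5 was then highest. Inside the range lay metabotropic glutamate receptor 1, nuclear receptor coactivator 2 (37.6 FPKM, against 37.8, 8.10 and 32.4 FPKM), unconventional myosin-Va (19.97 FPKM, against 9.31, 11.2 and 19.2 FPKM) and pumilio homolog 1 (27.3 FPKM, against 44.0, 9.06 and 34.04 FPKM).

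**Figure D5:**
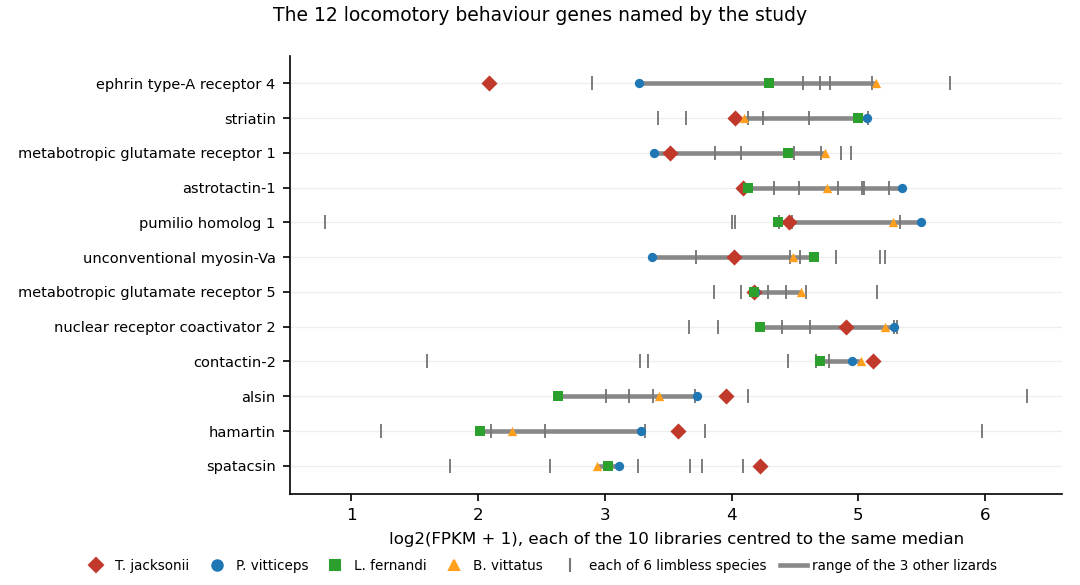
Rows are the 12 locomotory behaviour genes, ordered by the difference of T. jacksonii from the 3 other lizards, on log2(FPKM + 1) with all 10 libraries centred to the same median. The diamonds of T. jacksonii lie left of the grey range bar for ephrin type-A receptor 4 and close to or inside the bar for the next 7 rows, and they lie right of it in the 4 lowest rows, down to spatacsin.

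The limbless species were not used to choose these genes and place the chameleon in a wider setting. Of the 140 genes above the 3 lizards, 54 were also above all 6 limbless species, 84 were inside the limbless range and 2 were below it, while of the 203 genes below, 74 were also below all limbless species, 125 inside and 4 above. T. jacksonii was hence highest of the 10 species in 54 genes (8.57%) and lowest in 74 (11.7%). For the 3 other lizards these counts were 47 and 74 in P. vitticeps, 85 and 28 in L. fernandi, and 58 and 83 in B. vittatus. Without centring T. jacksonii was highest in 82 genes and lowest in 29. Of the 20 genes far above the lizards, 14 were also above all limbless species, and 4 of them by at least 1 log2, namely hydrolase 32, caskin-2, coatomer subunit gamma-2 and centriolin. Of the 49 far below, 29 were also below all limbless species, and 13 by at least 1 log2. Besides those already given, these included cationic amino acid transporter 4, with 0.92 FPKM in T. jacksonii against 2.15, 3.48 and 3.35 FPKM, and transcription factor E2F6, with 2.34 FPKM against 4.28, 4.14 and 10.5 FPKM.

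Across genes, T. jacksonii correlated with P. vitticeps at r = 0.55, with L. fernandi at r = 0.51 and with B. vittatus at r = 0.50 on the log2 scale (rho of 0.54, 0.51 and 0.50, n = 630 genes, which are not independent replicates). The 3 other lizards correlated with each other at r of 0.53 to 0.60, and T. jacksonii with the limbless species at r of 0.43 to 0.50. On the log2 scale the limbless Pantherophis guttatus (r = 0.5005) was just above B. vittatus (r = 0.5002). On FPKM without the logarithm, lizards and limbless species overlapped more widely. There r with T. jacksonii was 0.55, 0.51 and 0.54 for the 3 lizards. For the limbless species it was 0.40 to 0.57, highest for Python regius. The interquartile range of expression was 1.51 log2 in the chameleon, against 1.90, 1.71 and 2.18 log2, and the SD was 1.23 log2, against 1.32, 1.22 and 1.41 log2.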

How the data were processed

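Cerebella of 10 squamate species were profiled by RNA-seq, and the deposited table holds 1 column of FPKM per species. The authors used Trimmomatic for trimming, SortMeRNA against ribosomal reads, Trinity for assembly without a genome, TransDecoder for protein prediction, OrthoFinder for one-to-one orthologs and RSEM for FPKM. The deposited FPKM are scaled for transcript length and mapped fragments of each library. The methods give reads as an average over species. The depth of each library, and the way duplicate sequencing runs became 1 column, are not given in the sources read. Genes carry the protein names of the table, and the assemblies of different species can differ in transcript length and completeness, which would move FPKM. Each species has 1 library, mapped by its labels, and locomotor modes come from the paper. All columns were mapped.

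FPKM were analysed as log2(FPKM + 1), each column centred to the same median, without a filter. On this scale the folds of low genes come out too small. T. jacksonii was compared with the 3 other lizards by range and by limma 3.58.1 in R 4.3.3 with Benjamini-Hochberg adjustment over 630 genes at 0.05, tested on simulated data. Counts and figures were made with pandas 2.3.3, numpy 2.4.6 and matplotlib 3.10.9 in Python 3.11.15. Named genes are the 12 farthest above and 12 farthest below the range (22 doubtful names left out), the farthest member on each side in each of 19 lists, the 12 locomotory genes, 4 cell markers and the 5 of smallest limma p in each direction, and others are additions after values were seen. Of these, the row named transitional endoplasmic reticulum ATPase-like (1.44 FPKM in T. jacksonii, against 5.87, 6.91 and 16.7 FPKM) has a doubtful name. The comparison, members and lists were chosen with earlier results of these data known. Alternatives were other pseudocounts (0.1 and 5), no centring, quantile normalization, a mean of at least 5 FPKM, leaving out genes at exactly 0.5 FPKM, doubtful names or each lizard in turn, a trend in limma and a fit on all 10 species.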

Additional observations from a re-analysis of the deposited data

How the results depend on the processing

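The counts above and below the range (140 and 203) were within 1.5 times their value under all alternatives run except without centring (298 and 62). The counts at least 1 log2 above and below (20 and 49) were 11 and 20 with a pseudocount of 5 and 82 and 12 without centring, and quantile normalization gave 33 above. Leaving out each lizard in turn gave 164 to 197 above, 245 to 270 below, 33 to 52 at least 1 log2 above and 70 to 80 at least 1 log2 below, since a range of fewer species is narrower. Without P. vitticeps, L. fernandi and B. vittatus the counts at least 1 log2 above were 36, 52 and 33. Limma gave 0 adjusted calls in most alternatives. With a pseudocount of 5 it gave 1 higher (iporin, adjusted p = 0.0446) and 2 lower (exostosin-like 1, 0.00881, and neurochondrin, 0.0446). Leaving out each lizard in turn gave 0 to 2 lower calls: 2 without P. vitticeps (exostosin-like 1, 0.00428, and signal peptidase complex catalytic subunit SEC11C, 0.0371) and 1 without B. vittatus (exostosin-like 1, 0.00034). Among alternatives chosen after seeing the data were those for the counts highest and lowest of 10 species (54 and 74). These counts were 82 and 29 without centring, and 62 and 69 after quantile normalization. Without L. fernandi they were 58 and 77, but leaving out a species could not lower them. The gap of metabotropic glutamate receptor 5 changed sign to 0.14 log2 above the range without centring. No paired analysis was possible because each species has 1 library. With 1 chameleon library, the spread within the species is unknown, and depth and counting error cannot be read from FPKM.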
